A study of Mus musculus with 18 samples.

Results

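The MYC family and its MAX network are 10 genes here, Myc, Mycn, Mycl, Max, Mxi1, Mxd1, Mxd3, Mxd4, Mnt and Mga, taken by gene symbol from an ESC table of 13578 genes, a TSC table of 13518 and a XEN table of 11538. All 10 were listed in each of the 3 tables, which together hold 14804 genes, and all 10 passed the filter on low values in each cell type. The study asked how stem cells of the early mouse embryo respond to low oxygen. Bulk RNA-seq was made from mouse ESCs (the wild-type E14 line, of the epiblast lineage), TSCs (trophoblast stem cells) and XEN cells (of the extraembryonic endoderm), grown at 20% oxygen (normoxia) or for 2 or 7 days at 2% oxygen (hypoxia). There were 2 biological replicates per condition, or 18 libraries with 6 for each cell type. The normoxic libraries of a cell type served both days, and the labels give them no time in culture. Time in culture and time in hypoxia therefore cannot be told apart between day 7 and day 2. ESCs grew without feeder cells on gelatin in serum with LIF, TSCs on feeder cells with FGF4 and heparin, and XEN cells in medium conditioned in part by feeder cells. The sources name no engineered allele in any group and give no genotype for the TSCs and XEN cells. Each cell type is a single cultured line or stock, so the comparisons concern these cultures and no embryo.

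MYC, MYCN and MYCL are transcription factors that bind DNA as dimers with MAX at E-box sequences and support genes of growth, ribosome production and metabolism. MAX also dimerises with the MXD proteins (MXI1, MXD1, MXD3 and MXD4) and with MNT, which recruit SIN3 corepressors to the same kind of sites, and with MGA, which belongs to a variant Polycomb complex that silences germline genes in ESCs. MYC and MYCN sustain proliferation of pluripotent cells, and MXI1 is known as a target of the hypoxia-inducible factors that antagonises MYC.

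Promoter sequences show where letters bound by these factors and by the hypoxia-inducible factors stand in the network's own genes. RefSeq promoter windows of 300 bases (250 before and 50 after a start site, build GRCm38.p6) were found for 9 of the 10 members, with 3 start sites for Mxi1 and 11 windows in all. Myc had no entry. The searched motifs were the E-box CACGTG, which MYC and MAX dimers bind, and ACGTG and GCGTG, the core letters of sites for hypoxia-inducible factors, all on both strands. CACGTG contains ACGTG, so each E-box also counts as the latter. ACGTG stood in 6 of the 11 windows and in 19.6% of all 32851 windows, and CACGTG in 3 of the 11 and in 7.15% of all. The 6 windows with ACGTG belonged to 5 members. GCGTG stood in 32.4% of all windows, and ACGTG or GCGTG stood in 8 of the 11 windows and in 43.8% of all. The sequences below are those of Mxi1 and Mycl, the members that passed the test of change, over 120 bases before the start, and the E-box windows of Max, Mnt and Mxd4, with the matches in capitals. The Mxi1 sequence is chr19:53329293-53329412 on the plus strand and precedes the middle of the 3 start sites, with ACGTG 66 bases before it. The window of the first Mxi1 start site held none of the searched motifs, and that of the last held ACGTG 25 bases before the start. The Mycl sequence is chr4:122995811-122995930 on the plus strand, with GCGTG on the opposite strand (read as CACGC) 20 bases before the start. The E-box windows are chr12:76962226-76962271 on the minus strand for Max, chr11:74830781-74830826 on the plus strand for Mnt and chr5:34187904-34187949 on the minus strand for Mxd4, and CACGTG began 3, 123 and 219 bases before their start sites.
Mxi1: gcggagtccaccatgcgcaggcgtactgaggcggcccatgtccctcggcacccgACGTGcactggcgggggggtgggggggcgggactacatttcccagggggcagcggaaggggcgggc
Mycl: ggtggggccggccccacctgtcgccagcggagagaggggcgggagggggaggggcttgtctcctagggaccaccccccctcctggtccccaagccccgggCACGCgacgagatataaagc
Max: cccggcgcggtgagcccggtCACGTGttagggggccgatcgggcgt
Mnt: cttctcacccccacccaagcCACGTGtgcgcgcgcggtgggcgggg
Mxd4: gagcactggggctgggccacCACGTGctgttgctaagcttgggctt
A match is a string of letters in a window and was not tested as a binding site.

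The deposited values are TPM (transcripts scaled to a common sum per library), for which each gene's full genomic span with its introns served as the length, and each cell type has its own table. TPM are therefore used to compare 1 gene between libraries of a cell type. To compare genes, reads were recovered from the TPM and divided by exon length, scaled again to that sum, and this value is called the level per exon length. The libraries held between 35592641 and 75204029 recovered reads, and the members between 73 and 30276 reads in a library. A gene was called changed when limma gave it a fold change over 1.5 and a Benjamini-Hochberg adjusted p, over all genes tested, of at most 0.1. The smallest p of an exact permutation test of 2 libraries against 2 is 0.333, and the p-values given here draw on the spread that limma pools over genes. The summed TPM of 10 ESC markers lay between 16829 and 19993 in ESCs, that of 9 XEN markers between 7253 and 8554 in XEN cells, and that of 9 TSC markers between 1658 and 1979 in TSCs, each highest in its own cell type. TSC libraries also held 10 of 10 fibroblast markers, whose summed TPM was 1928 and 292 in normoxia, 226 and 1017 after 2 days and 482 and 292 after 7 days. In ESCs that sum was between 38.5 and 52.0, and in XEN cells between 0.191 and 0.650. Among 12 hypoxia reporters (targets of hypoxia-inducible factors such as Pdk1 and Bnip3), of which 10 were tested in XEN cells, the median log2 fold change against normoxia on days 2 and 7 was 0.98 and 1.11 for ESCs, 1.47 and 0.36 for TSCs, and 0.67 and 1.07 for XEN cells. In bulk samples, fewer cells of a type and less RNA per cell cannot be told apart.

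The family members that drive transcription differed in rank between the cell types. In normoxic ESCs Mycn (chr12:12936093-12941914), best known from neural and embryonic progenitors, had the highest level per exon length of the network, 457 and 516, and Myc (chr15:61985391-61990374) followed with 249 and 211. In normoxic TSCs Myc led with 312 and 314, and Mycn was at 52.5 and 75.3. In normoxic XEN cells Mycn was at 264 and 176 and Myc at 68.7 and 64.6. Mycl (chr4:122995652-123002485), the third family member, was the lowest of the 3 in every library, between 12.2 and 24.2 in ESCs, between 4.09 and 35.4 in TSCs and between 8.29 and 17.98 in XEN cells. As a share of the summed level of Myc, Mycn and Mycl, Mycn took 66.6% ± 4.2 (SD, n = 2) in normoxic ESCs and 72.9% ± 3.4 (SD, n = 2) in normoxic XEN cells, whereas Myc took 79.8% ± 2.4 (SD, n = 2) in normoxic TSCs. Since the tables were normalized separately, these shares, formed within a library, are the firmer comparison between cell types, and they were not tested.

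**Figure D1:**
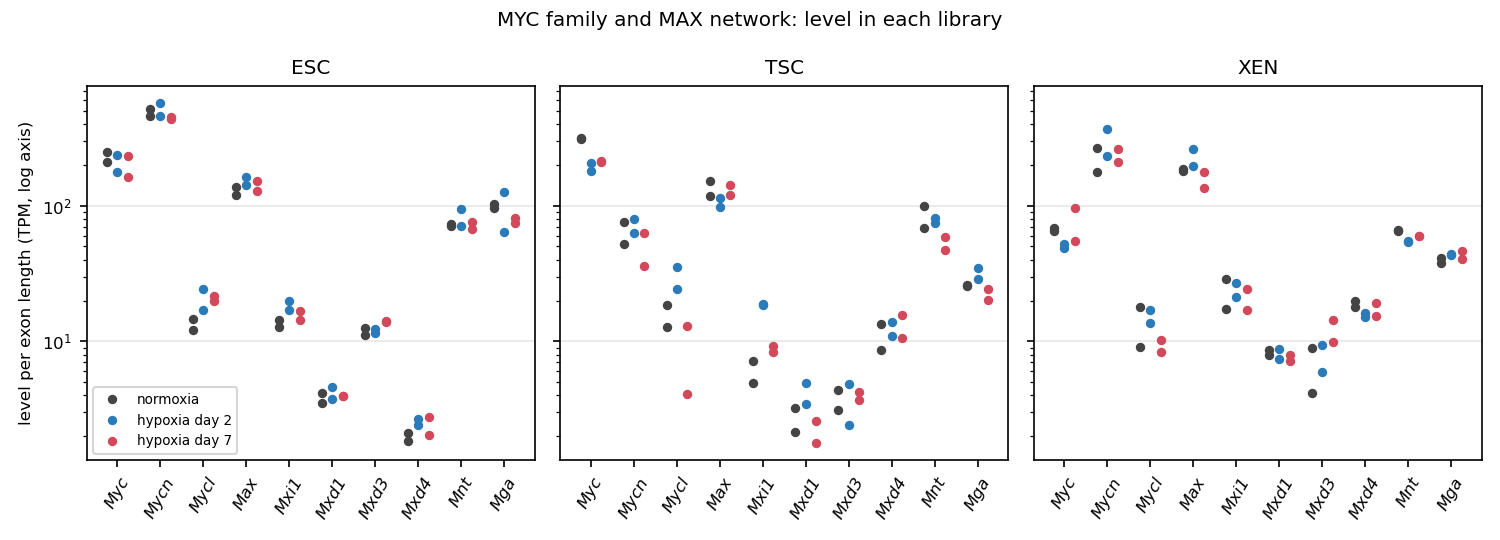
Level per exon length (TPM, log axis) of the 10 members in ESCs, TSCs and XEN cells, with 1 point per library and colours for normoxia, day 2 and day 7 of hypoxia. By mean, Mycn was the highest in normoxic ESCs and XEN cells and Myc in normoxic TSCs, while the MXD genes lay at 29.0 or lower in all libraries. In normoxic XEN replicate 2 Max (187) lay above Mycn (176).

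The composition of the family moved most in TSCs. There Myc stood at 65.6% ± 6.5 (SD, n = 2) of the summed level on day 2 and at 78.9% ± 7.2 (SD, n = 2) on day 7, and Mycl stood at 3.99% ± 1.17 (SD, n = 2) in normoxia, 10.1% ± 2.6 (SD, n = 2) on day 2 and 3.07% ± 2.02 (SD, n = 2) on day 7. Both day 2 libraries held a lower share of Myc and a higher share of Mycl than all other TSC libraries. In ESCs the share of Mycn was 69.1% ± 6.6 (SD, n = 2) on day 2 and 67.3% ± 4.5 (SD, n = 2) on day 7, within 1 SD of normoxia. In XEN cells it was 81.4% ± 4.7 (SD, n = 2) and 73.4% ± 9.3 (SD, n = 2), and the libraries of day 7 overlapped with those of normoxia. These shares are a description, with no test.

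**Figure D2:**
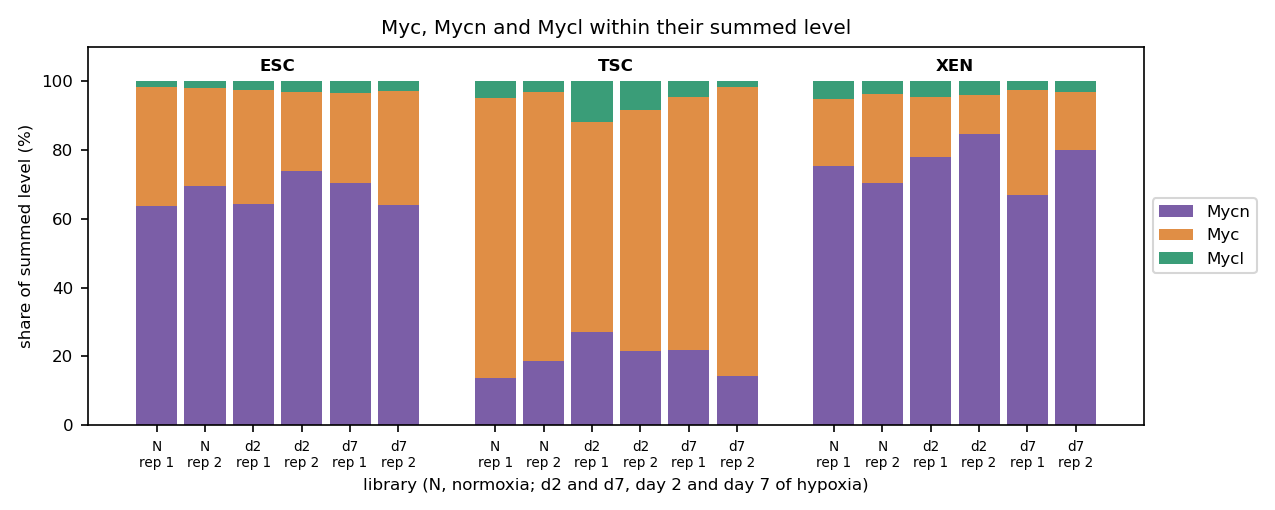
Share (%) of Mycn, Myc and Mycl in their summed level per exon length, 1 bar per library, for normoxia (N) and days 2 and 7 of hypoxia. Mycn holds most of the bar in ESCs and XEN cells and Myc in TSCs, and Mycl is widest in the TSC libraries of day 2, at a mean of 10.1%.

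Across the network, 2 calls were made in 9 comparisons, and both were in TSCs between day 7 and day 2 of hypoxia, where Mxi1 and Mycl fell. In that comparison 2 of 10 members were called, both lower, against 16.2% of the 12481 genes tested in either direction and 13.8% lower, so the share among the members is near that of all genes. No member was called in the other 8 comparisons. The share of all genes called there was 0% on day 2 and 0.758% on day 7 against normoxia and 0.179% between the days in ESCs, 0.2% on day 2 and 0.385% on day 7 in TSCs, and 0% on day 2, 0.11% on day 7 and 0.0367% between the days in XEN cells. With edgeR at the same thresholds, the authors reported more called genes on both days against normoxia in each cell type. The lack of a call here thus does not show that a gene was unchanged. By unadjusted limma p under 0.05, ESCs had 1 member on day 2 and 1 on day 7, TSCs had 2, 2 and 5 on day 2, on day 7 and between the days, and XEN cells had 1, between the days. Of all genes, 5.05%, 8.04% and 4.26% passed that threshold in these 3 comparisons in ESCs, 13.1%, 10.4% and 27.9% in TSCs, while for XEN cells the shares were 7.77%, 9.01% and 11.9%.

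Mxi1 (chr19:53310518-53375810) encodes an MXD-type partner of MAX. In TSCs it was at a TPM of 2.40 and 1.59 in normoxia, 6.23 and 6.06 after 2 days and 2.73 and 2.87 after 7 days. Both day 2 libraries stood above all others, and both day 7 libraries stood slightly above both normoxic ones. Between day 7 and day 2 Mxi1 fell by 1.01 on the log2(TPM + 0.5) scale (SE 0.27, adjusted p = 0.0649 by limma). The difference of day 2 from normoxia was larger, 1.43 (SE 0.27), but did not pass, with an adjusted p of 0.138 by limma among all genes. By voom on the recovered reads it was 1.65 and passed, with an adjusted p of 0.0967. On day 7 against normoxia the difference was 0.42 (SE 0.27, adjusted p = 0.637 by limma). In ESCs Mxi1 was at 4.01 and 4.42 in normoxia, 5.21 and 6.19 after 2 days and 5.31 and 4.50 after 7 days, and the hypoxic libraries lay above the normoxic ones with log2 differences of 0.39 (SE 0.19) and 0.19 (SE 0.19), neither called. In XEN cells Mxi1 was at 9.83 and 5.92 in normoxia, 9.45 and 7.23 after 2 days and 5.71 and 8.31 after 7 days, and the libraries of all groups overlapped. Exons of Mxi1 share bases with Gm10197 on the opposite strand, and whether reads were counted by strand is not given in the sources used here.

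Mycl in TSCs was at a TPM of 34.6 and 23.3 in normoxia, 66.6 and 45.3 after 2 days and 23.9 and 7.15 after 7 days. Day 2 stood above all other libraries, and the replicates of day 7 lay far apart. Between day 7 and day 2 Mycl fell by 2.02 on the log2 scale (SE 0.53, adjusted p = 0.0633 by limma), to which day 7 replicate 2 contributed most. Without that library the difference was -1.18 and was not called (adjusted p = 0.234 by limma). Against normoxia the log2 difference was 0.94 (SE 0.53) on day 2 and -1.08 (SE 0.53) on day 7, with adjusted p of 0.485 and 0.541 by limma. In ESCs Mycl was at 21.7 and 25.4 in normoxia, 29.8 and 43.1 after 2 days and 38.3 and 34.6 after 7 days, so that both hypoxic groups lay above normoxia. The log2 differences were 0.60 (SE 0.19, adjusted p = 0.824 by limma) and 0.62 (SE 0.19, adjusted p = 0.369 by limma), and the latter was called when the fit held only the 4 libraries compared (adjusted p = 0.0723 by limma) and when either library of day 2 was left out (adjusted p = 0.0697 and 0.0717 by limma). Without day 2 replicate 1 the difference of day 2 from normoxia was 0.86 and was called too (adjusted p = 0.0415 by limma), and without day 2 replicate 2 it was 0.34 and was not. In XEN cells Mycl was at 34.5 and 17.5 in normoxia, 26.9 and 32.9 after 2 days and 15.8 and 19.7 after 7 days. There day 7 lay below day 2 by a log2 difference of -0.74 (SE 0.32, adjusted p = 0.415 by limma), and the normoxic libraries overlapped with both groups.

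Several measures moved with these genes in TSCs. Between day 7 and day 2, 7 of 12 hypoxia reporters fell, with Pdk1 at -2.44 and Pfkfb3 at -2.34 as the largest, and the median of the list was -1.01 against -0.24 over all genes. In the same comparison 5 of 9 TSC markers fell, with Duox2 at -3.37 and Elf5 at -2.30 as the largest, and the keratin gene Krt7 rose by 1.33. Of 8 ESC markers tested in TSCs, 5 fell, and among them Sox2 fell by 2.85 on the log2 scale. The summed TPM of this list lay between 1340 and 4637 in TSCs, so its genes are not confined to ESCs. Of 7 genes of differentiated trophoblast tested, Prl3d1, a placental hormone of giant cells, rose by 2.15, and Gcm1 and Ascl2 fell, by 1.38 and 1.16. Over all genes 13.8% were called lower in this comparison. With median-ratio scaling of the libraries, under which 7.87% of all genes were called lower, the counts lower were 3 hypoxia reporters, 4 TSC markers, 5 ESC markers and 0 genes of differentiated trophoblast. Fibroblast markers gave 0 calls in 10 genes in each TSC comparison, but their sum was highest in normoxia replicate 1 and day 2 replicate 2. Without these 2 libraries, an alternative chosen after seeing the data, the log2 difference of day 2 from normoxia was 1.69 for Mxi1 and 1.49 for Mycl, and that of day 7 from day 2 was -1.03 and -2.29. With 1 library left in normoxia and on day 2, these are given with no test. The part of cell state, feeder cells or depth in the TSC values was not tested, and time in culture cannot be told apart from time in hypoxia.

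**Figure D3:**
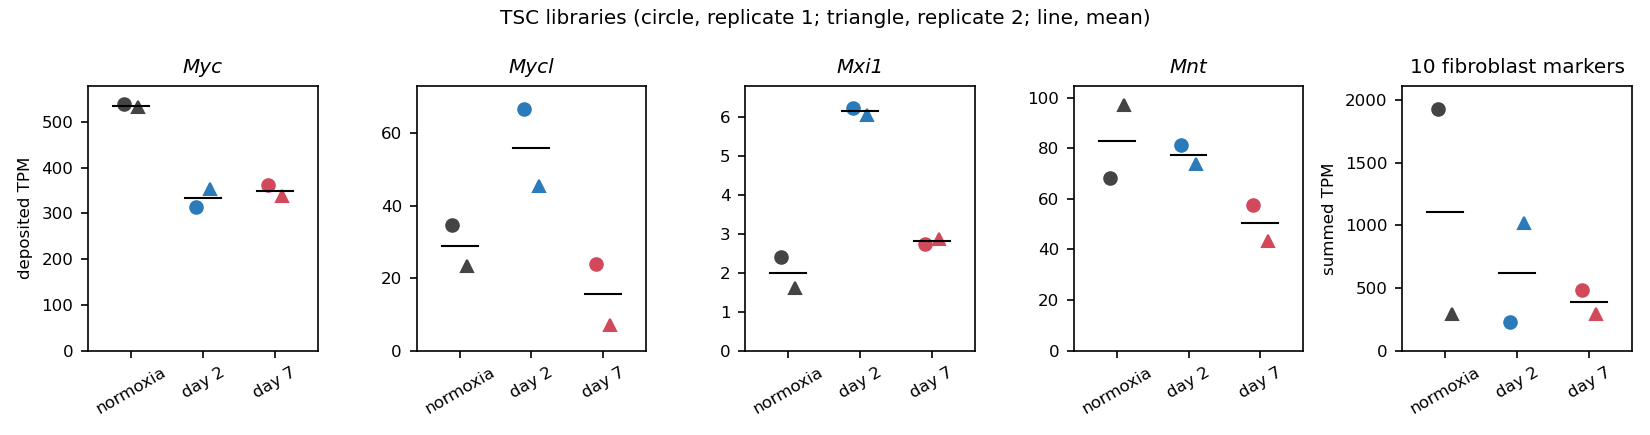
Deposited TPM of Myc, Mycl, Mxi1 and Mnt, and the summed TPM of 10 fibroblast markers, in the 6 TSC libraries (circles, replicate 1; triangles, replicate 2; lines, means; all axes start at 0). Mxi1 and Mycl were highest on day 2, Myc was highest in normoxia, and the fibroblast sum differed between replicates of normoxia (1928 and 292) and of day 2 (226 and 1017).

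Scaling mattered in this comparison. The median log2 difference of all genes was -0.24 between day 7 and day 2 in TSCs and -0.18 between day 7 and normoxia. After median-ratio scaling of the libraries these medians were 0.01 and -0.01, the calls between day 7 and day 2 went from 296 higher and 1723 lower to 724 higher and 982 lower, and Mxi1 was at -0.76 (adjusted p = 0.115 by limma), no longer called. Mycl was at -1.75 under that scaling and was still called (adjusted p = 0.0798 by limma). Calls were also lost when a library was left out, which leaves a group with a single library. Leaving out either library of day 2 or either library of day 7 left the log2 difference of Mxi1 between -0.98 and -1.04 but not called, with adjusted p between 0.147 and 0.296 by limma. Mycl was not called without either library of day 2 (-1.75 and -2.29), and was called without day 7 replicate 1 (-2.86, adjusted p = 0.0842 by limma).

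Myc itself was lower in hypoxic TSCs in all 4 libraries, but did not pass the test. Its TPM was 540 and 532 in normoxia, 314 and 353 after 2 days and 362 and 337 after 7 days. The hypoxic and normoxic libraries did not overlap, and the replicates of each group lay close together. The log2 difference from normoxia was -0.69 (95% interval -1.09 to -0.29, adjusted p = 0.221 by limma) on day 2 and -0.62 (95% interval -1.01 to -0.22, adjusted p = 0.278 by limma) on day 7. These 2 comparisons share the normoxic libraries. In ESCs Myc was at 410 and 337 in normoxia, 381 and 292 after 2 days and 266 and 375 after 7 days, with overlap between the groups. In XEN cells it was at 122 and 114 in normoxia, 95.2 and 86.2 after 2 days and 168 and 97.8 after 7 days, and day 2 lay below both other groups by a narrow margin, with a log2 difference from normoxia of -0.38 (SE 0.25).

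Mycn showed no call in any cell type. In ESCs its TPM was 780 and 857 in normoxia, 769 and 971 after 2 days and 747 and 756 after 7 days. In TSCs it was 94.4 and 132 in normoxia, 144 and 112 after 2 days and 111 and 59.8 after 7 days, and in XEN cells 485 and 324, 443 and 672, and 382 and 480. The groups overlapped against normoxia in TSCs and XEN cells, and in ESCs only day 7 lay below normoxia, by 0.12 on the log2 scale (SE 0.15). Between day 7 and day 2 in TSCs the log2 difference was -0.64 (SE 0.33, adjusted p = 0.251 by limma).

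Max (chr12:76937269-76962201), the shared partner of the network, was not called in any comparison. Its level per exon length lay between 120 and 162 in ESCs, between 97.8 and 153 in TSCs and between 135 and 260 in XEN cells. In TSCs it was below the summed level of Myc, Mycn and Mycl in every library, at a ratio of 0.311 and 0.380 in normoxia, 0.386 and 0.334 after 2 days and 0.491 and 0.479 after 7 days. The ratio lay between 0.162 and 0.216 in ESCs and between 0.431 and 0.868 in XEN cells. In XEN cells Max was at a TPM of 84.6 and 87.6 in normoxia, 126 and 91.6 after 2 days and 62.9 and 83.2 after 7 days, with a log2 difference between day 7 and day 2 of -0.57 (SE 0.21, adjusted p = 0.410 by limma).

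**Figure D4:**
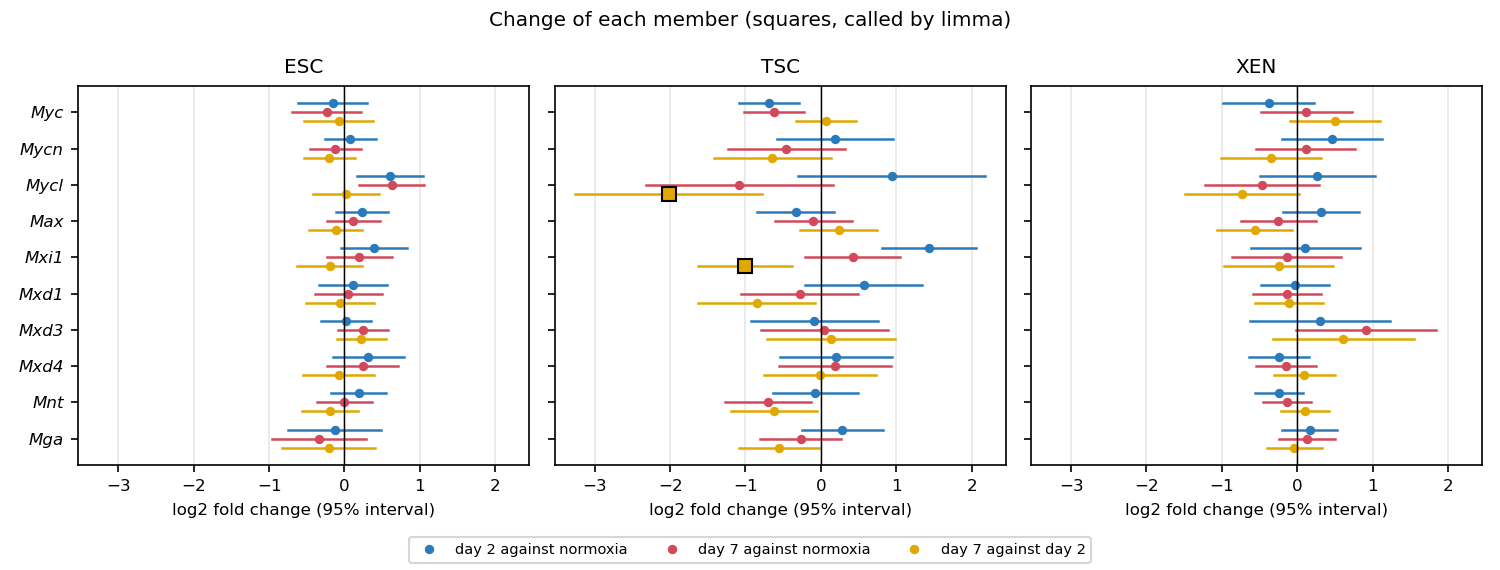
Log2 fold change with its 95% interval for each member (rows) in ESCs, TSCs and XEN cells, in 3 comparisons by colour; the points of day 2 and day 7 against normoxia share the normoxic libraries. Squares mark the 2 calls by limma, Mycl at -2.02 and Mxi1 at -1.01 in TSCs between day 7 and day 2.

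The other MXD genes were expressed at low levels and gave no call. Mxd1 (chr6:86647042-86669161), linked to cell cycle exit, had a level per exon length between 3.51 and 4.60 in ESCs, 1.77 and 4.91 in TSCs, and between 7.19 and 8.73 in XEN cells. Its TPM in TSCs was 3.27 and 2.12 in normoxia, 4.99 and 3.46 after 2 days and 2.57 and 1.67 after 7 days, so day 2 stood above the others, and day 7 against day 2 gave a log2 difference of -0.85 (SE 0.33, adjusted p = 0.148 by limma). Mxd3 (chr13:55325168-55329823), expressed in cycling cells, was at a TPM of 17.0 and 18.6 in normoxia, 17.5 and 18.7 after 2 days and 21.2 and 21.2 after 7 days in ESCs. The last were the highest of the 6 libraries, at a log2 difference of 0.25 (SE 0.14) from normoxia. In XEN cells Mxd3 was at 6.88 and 14.8, 10.1 and 15.7, and 23.5 and 16.3, with a log2 difference of 0.92 (SE 0.39, adjusted p = 0.553 by limma) on day 7 against normoxia, which was 0.39 without normoxia replicate 1 and 1.44 without normoxia replicate 2. Exons of Mxd3 share bases with Prelid1 on the opposite strand, and those of Mxd4 with Gm42846. The part of reads from these overlapping genes in the Mxd3 and Mxd4 values was not tested. Mxd4 (chr5:34173883-34187720) was the lowest of the network in ESCs, between 1.86 and 2.77 per exon length, and was at 8.67 to 15.6 in TSCs and 15.2 to 19.9 in XEN cells.

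Mnt (chr11:74830920-74845725), a widely expressed repressor that competes with MYC for MAX, stood far above the MXD genes. Its level per exon length was between 67.5 and 93.9 in ESCs, 46.9 and 99.8 in TSCs, and between 54.3 and 65.7 in XEN cells. In TSCs its TPM was 68.3 and 96.9 in normoxia, 81.2 and 73.7 after 2 days and 57.6 and 43.4 after 7 days. Day 7 lay below all other TSC libraries, by a log2 difference from normoxia of -0.70 (SE 0.24, adjusted p = 0.379 by limma). In XEN cells Mnt was at 66.3 and 66.6 in normoxia, 56.8 and 55.4 after 2 days and 60.7 and 60.2 after 7 days, 3 tight pairs that did not overlap, but the log2 differences were -0.24 (SE 0.13) and -0.14 (SE 0.13), within 1.5-fold and not called.

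Mga (chr2:119897228-119969581), which links MAX to the variant Polycomb complex PRC1.6, had a level per exon length between 64.2 and 127 in ESCs. It was between 20.04 and 34.4 in TSCs and between 38.0 and 46.02 in XEN cells. These ranges did not overlap, but the tables were normalized separately, and the order between cell types was not tested. In ESCs the TPM of Mga was 61.3 and 63.5 in normoxia, 40.2 and 80.9 after 2 days and 51.5 and 47.2 after 7 days. The libraries of day 2 lay on either side of all others, so day 2 gave a log2 difference of -0.13 with an SE of 0.27, and day 7 lay below normoxia at -0.34 (SE 0.27). Without day 2 replicate 1, day 7 against day 2 gave -0.71 and was called (adjusted p = 0.0828 by limma), without day 2 replicate 2 it had the other sign, at 0.29, and with all libraries it was -0.21 (SE 0.27), neither called. In TSCs day 2 stood above the rest at 23.2 and 19.2, against 17.4 and 17.1 in normoxia and 16.2 and 12.6 on day 7.

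In the order of levels per exon length in normoxic ESCs, Mycn, Myc, Max, Mga and Mnt were each apart from the next in both libraries, and Mxi1, Mycl and Mxd3 overlapped. In normoxic TSCs the order was Myc, Max, Mnt, Mycn, Mga, Mycl, Mxd4, Mxi1, Mxd3 and Mxd1, where Mnt overlapped with Mycn, Mycl with Mxd4 and Mxd3 with Mxd1. In normoxic XEN cells it was Mycn, Max, Myc, Mnt, Mga, Mxi1, Mxd4, Mycl, Mxd1 and Mxd3, where Mycn overlapped with Max, Myc with Mnt, Mxi1 with Mxd4 and Mxd1 with Mxd3. The summed level of the other partners of MAX (Mxi1, Mxd1, Mxd3, Mxd4, Mnt and Mga) relative to that of Myc, Mycn and Mycl was between 0.238 and 0.336 in ESCs and between 0.356 and 0.644 in XEN cells. In TSCs this ratio was 0.321 and 0.359 in normoxia, 0.517 and 0.492 after 2 days and 0.396 and 0.371 after 7 days. The 3 groups of TSCs did not overlap, and day 2 stood highest. The ratio was chosen after the levels were seen and was not tested.

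Counts of members whose libraries did not overlap between groups were near those of all genes. Against normoxia, the pair of hypoxic libraries was clear of the normoxic pair in ESCs for 3 members on day 2 and for 5 on day 7, where 30.8% and 40.5% of all genes did so. The counts were 6 and 4 in TSCs, against 47.4% and 41.3% of genes, and 5 and 4 in XEN cells, against 41% and 41.3%. Between day 7 and day 2 the counts for ESCs, TSCs and XEN cells were 2, 6 and 5, against 24%, 59.3% and 47.7%. All 6 in TSCs were lower on day 7 (Mycn, Mycl, Mxi1, Mxd1, Mnt and Mga), and the median log2 difference of the 10 members there was -0.59 against -0.24 over all genes. These values are without median-ratio scaling, and the calls over all genes there were 296 higher and 1723 lower. The share of all genes with both day 7 libraries lower was not computed, so this direction cannot be read as a trait of the network.

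Profiles over the 18 libraries, each gene centred within its cell type, were compared with those of all 10081 genes tested in the 3 tables. Nearest to Mycl were Trappc8, Tmc7 and Cep97, with Pearson's r of 0.93, 0.93 and 0.92. Nearest to Mxi1 were Dnajc28, Vwa1 and Narf, with r of 0.89, 0.85 and 0.84. Within TSCs these r lay between 0.91 and 0.99, and within ESCs and XEN cells they were lower, down to 0.24 for Vwa1 in ESCs and 0.23 for Narf in XEN cells. The TSC libraries, which span the widest range, thus set much of the likeness. The libraries share their depth and scaling within a table, and the genes were picked as the highest of many.

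**Figure D5:**
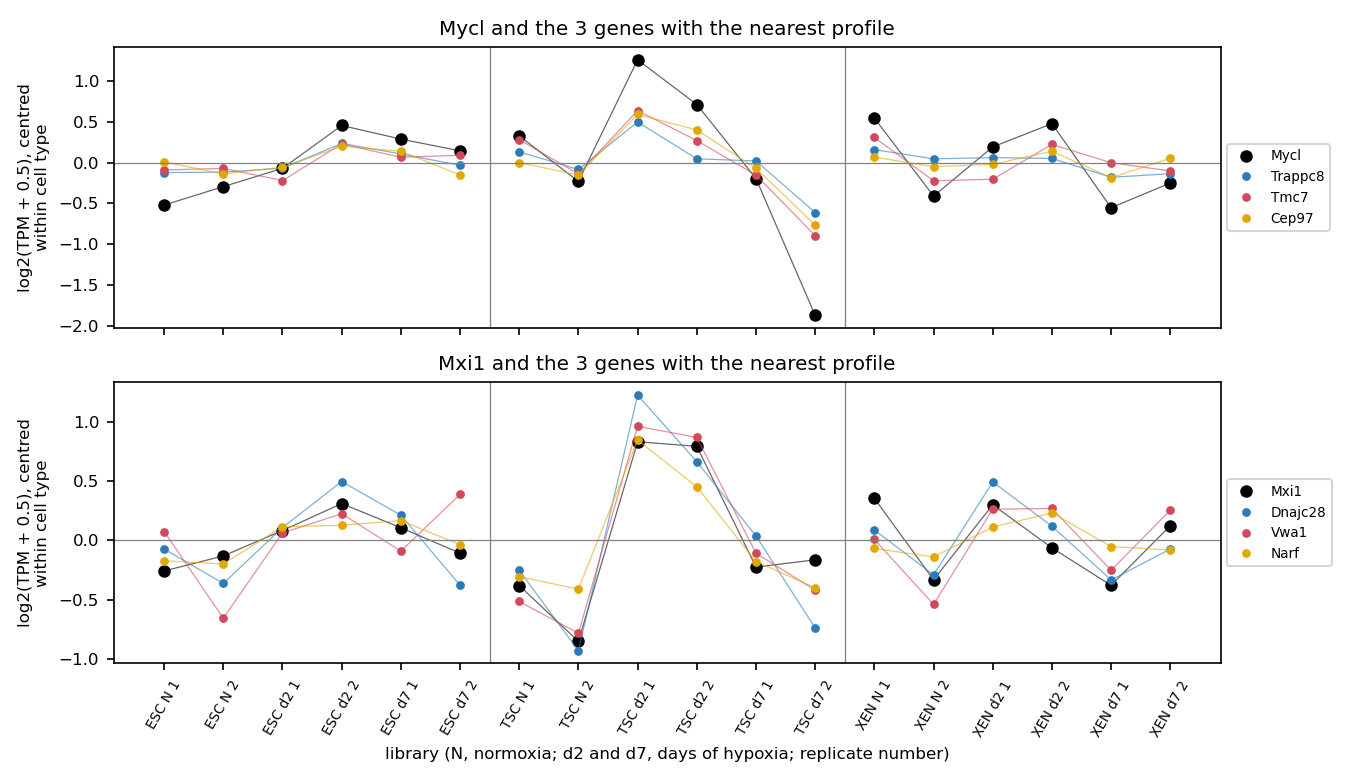
Centred log2(TPM + 0.5) of Mycl and Mxi1 (black) and the 3 genes nearest to each (colours) in the 18 libraries, in the order ESC, TSC and XEN. The 2 day 2 libraries of TSCs stand highest for each of the 8 genes within that cell type except Trappc8 and Tmc7, whose day 2 replicate 2 lies below normoxia replicate 1.

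Genes that act with the network were counted by list. Of 34 genes known as MYC targets (nucleolar proteins, purine and polyamine enzymes, translation factors), 0 were called against normoxia in any cell type, and 3 fell in TSCs between day 7 and day 2, namely Paics by 1.07, Ppat by 0.78 and Dkc1 by 0.73 on the log2 scale, a smaller share than the 13.8% of all genes called lower there. With median-ratio scaling Paics alone was called. Paics and Ppat are enzymes of purine synthesis, and Dkc1 is a nucleolar pseudouridine synthase. The median of the list against normoxia on days 2 and 7 was -0.09 and -0.08 for ESCs, -0.15 and -0.26 for TSCs, and 0.00 and -0.28 for XEN cells, where the medians of all genes were 0.01, 0.02, 0.07, -0.18, -0.01 and -0.03. Of 10 genes that MYC is known to repress, Ndrg1 and Ndrg2 rose in TSCs on day 2, by 2.05 each (adjusted p = 0.0983 and 0.0985 by limma), where 0.2% of all genes were called. With median-ratio scaling neither was called (adjusted p = 0.139 and 0.119 by limma). Ndrg1 is also a known target of hypoxia. Between day 7 and day 2 in TSCs 4 of these genes fell, led by Ndrg2 at -2.24 and Ndrg1 at -1.75, against 13.8% of all genes called lower. With median-ratio scaling 4 were called lower and 1 higher, against 7.87% and 5.8% of all genes. The median of this list against normoxia on days 2 and 7 was 0.13 and 0.43 for ESCs and 0.33 and -0.10 for TSCs. For XEN cells, where 7 of the 10 genes were tested, it was 0.08 and 0.02. Against normoxia 0 of these genes were called in ESCs and XEN cells.

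Among 10 SIN3 corepressor genes, the partners of the MXD proteins and MNT, calls were made only in TSCs between day 7 and day 2, where Sap30 fell by 1.52 and Sin3b rose by 0.72. Among 11 MYC cofactors Ruvbl2, an ATPase of chromatin complexes, fell by 0.77 in that comparison and no other call was made. Among 10 genes that set the stability of MYC proteins 3 fell there, with the deubiquitinase Usp28 at -1.35 and the kinase Aurka at -1.09 as the largest. In the parallel MLX branch of 5 genes Mlxipl, a glucose-responsive factor, fell by 1.13 at a TPM of 1.40 or lower. These calls stand beside 16.2% of all genes called in that comparison, and those of Ruvbl2 and Mlxipl were lost with median-ratio scaling.

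Of 13 other components of the MGA complex PRC1.6, Pcgf6 fell by 0.79 and Tfdp1 by 0.65 in TSCs between day 7 and day 2, and 0 were called elsewhere. This share is near the 16.2% of all genes called, and with median-ratio scaling neither was called. Of 18 germline genes under this complex, the filter kept 17 in ESCs, 11 in TSCs and only 2 in XEN cells. In ESCs Hormad1, a meiotic chromosome protein, rose on day 7 against normoxia by 1.07 (SE 0.18, adjusted p = 0.0696 by limma), from a TPM of 6.01 and 5.07 to 12.2 and 12.0. It was the only call among the 17 germline genes tested there, where 0.758% of all genes were called. The median of the germline list in ESCs was 0.09 on that day, against 0.02 over all genes. In TSCs Tdrd1 fell by 0.99 and Tdrkh by 0.85 between day 7 and day 2, which is 2 of 11 germline genes tested there, and Tdrkh was not called with median-ratio scaling.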

How the data were processed

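Bulk RNA-seq of 18 libraries was analysed. As stated in the study's methods and the submitters' processing notes, the authors trimmed reads with cutadapt 2.4, aligned them to mm10 with STAR 2.7.5a, counted them on genes with featureCounts and left out genes that were not protein-coding or did not exceed 0.4 CPM in 2 of 6 libraries. The deposited TPM form a table for each cell type, and the columns of day 0 were taken as the normoxic libraries. Each table was normalized on its own, so nothing was tested between cell types.

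Reads were recovered with Python 3.11.15 from TPM times gene span, which fell within 0.05 of whole multiples for all 180 values of the members. Genes that exceeded a TPM of 0.4 in 2 or more of 6 libraries were fitted as log2(TPM + 0.5) with limma 3.58.1 in R 4.3.3, with a variance trend, over the 6 libraries of a cell type. A change was called at an adjusted p at or under 0.1 and over 1.5-fold, the thresholds the study gives. The fit was also run on simulated reads with either no change or large changes, at a fixed spread. That run cannot show how the fit performs on smaller changes or on replicates that lie far apart. The authors used edgeR, which was not run on TPM. Gene positions come from GENCODE M21 on GRCm38. All 10 members were described, with at most 2 called genes per direction, comparison and list. The members and lists were chosen with earlier results of these data known. The labels do not say whether a replicate number marks a shared culture or day, and no block was fitted in the reported values. Alternatives were other pseudocounts, filters, scaling, length and thresholds, a replicate block, no trend, 4 libraries, voom and each library left out.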

Additional observations from a re-analysis of the deposited data

Results flagged for a closer look

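For 3 members both libraries of a group moved 1 way in a cell type and both libraries of the matching group moved the opposite way in another. In each case the difference between the cell types was not tested, and neither change was called. Libraries without overlap were common, at 24% to 59.3% of all genes, depending on the comparison. The share of all genes with such opposite moves was not computed, so these 3 cannot be read as a trait of the network. Max on day 2 against normoxia was higher in XEN cells, at a log2 difference of 0.32, and lower in TSCs, at -0.33. Mxd4 in the same comparison was higher in ESCs, at 0.32, and lower in XEN cells, at -0.24. Mnt on day 7 against day 2 was higher in XEN cells, at 0.11, and lower in TSCs, at -0.63. With 2 libraries per group, single outlying libraries could not be tested.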

How the results depend on the processing

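The count of members called, 2 in TSCs between day 7 and day 2 and 0 in the other 8 comparisons, was the same under other pseudocounts, filters on low values, TPM from exon length and a fit without the variance trend. In TSCs between day 7 and day 2 it was 1 with median-ratio scaling, 0 at an adjusted p at or under 0.05 and between 0 and 2 with a library left out. It was 1 in TSCs on day 2 by voom and 1 in ESCs on day 7 with the fit to the 4 libraries compared. With a library left out it was between 0 and 1 in each of the ESC comparisons and 0 in the other TSC and in the XEN comparisons. With the replicate block it was 3 in TSCs between day 7 and day 2, where Mxd1 was added (-0.85, adjusted p = 0.0900 by limma), and 0 elsewhere. The labels do not say whether libraries with the same replicate number shared a culture or day. Deviations of same-numbered libraries correlated between -0.46 and 0.27 across genes, which does not settle this. With the numbers of day 2 crossed, an alternative added after seeing the data, the count was 1 in TSCs on day 2 and 2 between day 7 and day 2. The cause of these changes was not tested. The differences called as reported, Mxi1 and Mycl, kept their sign under every alternative, while 39 of the 90 differences of members had the other sign under some alternative, among them Mga in ESCs between day 7 and day 2, which was called at -0.71 without day 2 replicate 1 and was 0.29 without day 2 replicate 2. Calls over all genes ranged from 0 to 2778 between day 7 and day 2 in TSCs (2019 as reported), 0 to 326 and 0 to 220 on days 2 and 7 (25 and 48), 0 to 493, 8 to 322 and 0 to 192 in ESCs (0, 93 and 22) and 0 to 61, 1 to 195 and 0 to 83 in XEN cells (0, 12 and 4). Shares of the leading MYC gene moved by less than 1 SD with the TPM as deposited. With 2 libraries per group, 61 of the 90 intervals reach past 1.5-fold, so changes of that size could have been missed.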
